A study of Mus musculus with 6 samples.

Results

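Secretory entry genes encode the machinery that takes a new protein into the endoplasmic reticulum (ER), removes its signal peptide and attaches its first N-glycans. A list of 40 such genes was examined, covering signal recognition, the translocon, signal peptidase, oligosaccharyltransferase and the first step of ER export. The list was drawn up by function around Spcs3, a signal peptidase subunit already known to be lower with BMP2 in these samples, in order to ask whether Spcs3 moved alone. The Spcs3 difference is therefore given as a description with no test. Of the 40 genes, 36 had a probe set among the 21115 of the array, and Sec61b, Sec61g, Srp54a and Hm13 were not analysed here.

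The samples were primary hepatocytes of C57BL/6 mice. BMP2-treated cells (3 samples) received the recombinant protein at 50 ng/ml and were collected after 24 hours, and control cells (3 samples) were kept for 24 hours without it. The series design names 3 mice as the source of the cells, and replicate numbers 1 to 3 in the labels run through both groups. Cells of both groups were plated on collagen in medium with serum and dexamethasone and were then moved to serum-free medium, so both groups are cultured hepatocytes rather than intact liver. BMP2, bone morphogenetic protein 2, is a growth factor whose receptors activate SMAD transcription factors. It was added to the medium, so no promoter or transgene drives it, and the labels do not say whether control cells received its solvent.

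A protein bound for secretion carries a signal peptide, which the signal recognition particle (SRP) binds as it leaves the ribosome. The SRP brings the ribosome to its receptor on the ER, the chain enters the Sec61 channel, signal peptidase cuts off the signal peptide, and oligosaccharyltransferase transfers a preassembled sugar to asparagines of the chain. Hepatocytes use this route heavily, since they make albumin, transferrin, apolipoproteins and most clotting factors of the plasma.

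Expression values are the log2 values deposited by the authors, and every difference below is the BMP2 mean minus the control mean on that scale. The values ran from 6.35 to 14.0 and each of the 6 sample medians was 6.80 or 6.81. Levels under 7 are called near the floor here, since differences shrink there. The culture responded to BMP2, with Id1, a direct BMP target, at 11.64, 11.75 and 11.64 in BMP2 samples and at 7.50, 7.21 and 7.48 in control samples. Of 7 measured hepatocyte markers 6 stood above 7 in both groups, and 6 were higher with BMP2 (median difference 0.32). Cps1, the marker under 7, averaged 6.99 with BMP2 and 6.90 in control. Hnf4a, a hepatocyte transcription factor gene, rose by 0.82 (limma adjusted p = 0.0097). Ttr, the transthyretin gene, and Fga, a fibrinogen gene, differed by 0.68 and 0.29 (adjusted p 0.073 and 0.22) and passed with the replicate number as a block (adjusted p 0.017 for each). Alb, the albumin gene, was the one below 0, at 13.71 to 13.83 with BMP2 and 13.79 to 13.84 in control. The summed linear signal of these 7 was 40476 to 45351 in BMP2 samples and 33063 to 36851 in control samples. Summed signals of other cell types were 657 to 697 with BMP2 and 649 to 678 in control for 6 endothelial markers, 648 to 680 and 672 to 772 for 6 Kupffer cell and leukocyte markers, 748 to 803 and 826 to 931 for 6 stellate and mesenchymal markers, and 1799 to 1919 and 1464 to 1740 for 4 cholangiocyte markers. Averages under 7 were seen for 5 of the 6 endothelial and 5 of the 6 Kupffer cell and leukocyte markers. They were also seen for 4 of the 6 stellate and mesenchymal and 2 of the 4 cholangiocyte markers. Stab2, Clec4g, Clec4f, Adgre1, Ptprc, Des, Lrat and Epcam are among these. Above 7, the endothelial marker Cdh5 averaged 7.21 with BMP2 and 7.10 in control, and the mesenchymal marker Col1a1 averaged 7.04 and 7.11. Neither passed (limma adjusted p 0.83 and 0.51). The smooth muscle actin gene Acta2 (difference -0.49, limma adjusted p = 0.20), the keratin gene Krt19 (-0.51, adjusted p = 0.073), the macrophage gene Cd68 (-0.34, adjusted p = 0.56) and Sox9 (0.46, adjusted p = 0.14) differed without passing. Cd68 averaged 7.41 with BMP2 and 7.75 in control and was lower within each replicate number. Sox9, a biliary transcription factor gene, averaged 10.40 with BMP2 and 9.94 in control and passed with the block (adjusted p = 0.039). It makes up most of the cholangiocyte sum above, while 3 of the 4 markers in that sum lay below 0 (median difference -0.006). The part of these cell types in the differences below was not tested, and fewer cells of a type cannot be told apart from less RNA per cell.

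Spcs3 was nearly 3-fold lower with BMP2, while no partner in signal peptidase differed by a like amount. It encodes a non-catalytic subunit of the complex that is known to be essential in yeast. Spcs3 stood at 9.37, 9.51 and 9.52 in BMP2 samples of replicates 1, 2 and 3, against 11.02, 11.00 and 11.06 in the control samples of the same numbers. All BMP2 samples lay well below all control samples, and the groups did not overlap. The means were 9.47 ± 0.08 with BMP2 and 11.03 ± 0.03 in control (SD, n = 3 each), a difference of -1.56 ± 0.05 (SE), which corresponds to a 2.95-fold lower linear signal. Within the replicate numbers the difference was -1.65, -1.49 and -1.54. Both levels lay far above the floor, so the difference was not limited by it.

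**Figure D1:**
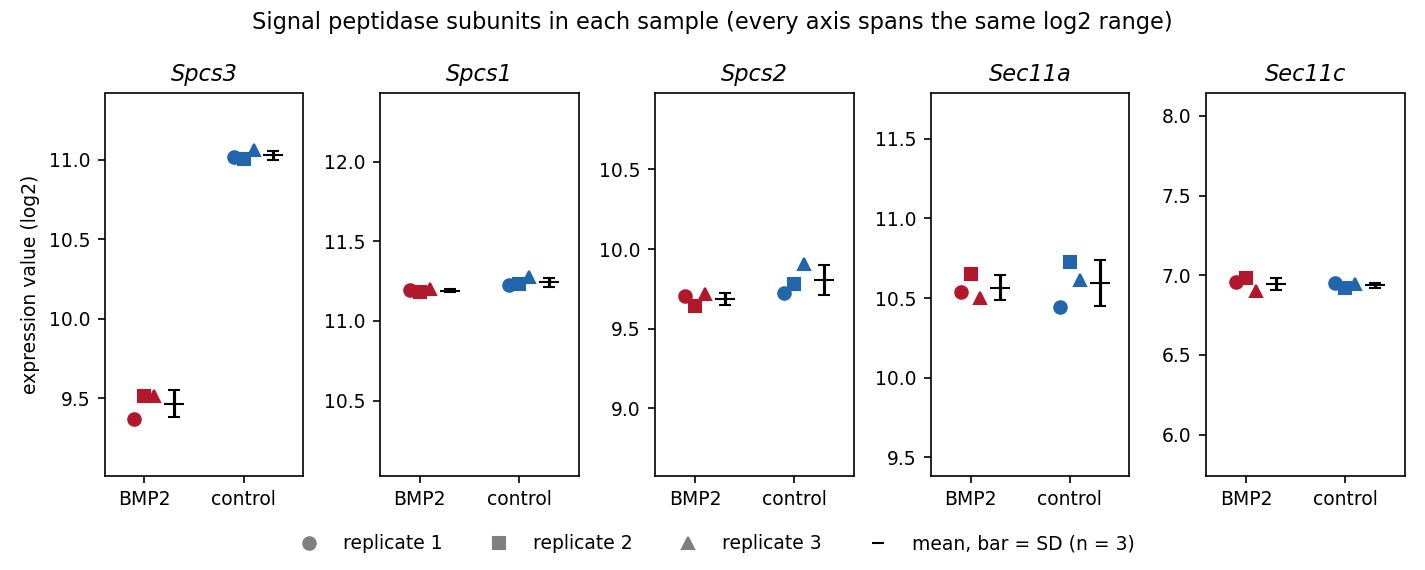
Expression values (log2) of the 5 measured signal peptidase genes in each sample, with BMP2 samples left of control samples, a marker shape for each replicate number, and black bars for mean and SD (n = 3). Every axis spans the same log2 range, and Spcs3 alone among the 5 shows a gap between groups (9.37 to 9.52 with BMP2 and 11.00 to 11.06 in control) that is large on it.

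The other signal peptidase genes differed by at most 0.12 in either direction. Spcs1, a small non-catalytic subunit, stood at 11.19, 11.18 and 11.20 in BMP2 samples and 11.22, 11.23 and 11.28 in control samples. The groups of Spcs1 did not overlap, but the difference was only -0.05 ± 0.02 and did not pass (limma adjusted p = 0.28). Spcs2, the third accessory subunit, stood at 9.70, 9.64 and 9.71 with BMP2 and 9.72, 9.78 and 9.91 in control. The groups of Spcs2 did not overlap, by a narrow margin, and within the replicate numbers the difference was -0.02, -0.13 and -0.19. The mean difference of -0.12 ± 0.05 had an adjusted p of 0.47 in limma, with control replicate 3 highest. Sec11a encodes a catalytic subunit and stood at 10.54, 10.65 and 10.50 with BMP2 and 10.44, 10.72 and 10.62 in control. Its groups overlapped fully (difference -0.03 ± 0.08, limma adjusted p = 0.97). Sec11c, the alternative catalytic subunit, stood at 6.96, 6.98 and 6.90 with BMP2 and 6.95, 6.92 and 6.94 in control. These levels lie near the floor, so the difference of 0.01 ± 0.02 (limma adjusted p = 0.97) does not show that Sec11c was unchanged.

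Over all probe sets 251 (1.19%) passed at a limma adjusted p of 0.05. Of these 121 (0.573%) were lower and 130 (0.616%) higher with BMP2. Of the 35 secretory entry genes other than Spcs3, 0 were called lower and 0 higher in limma. At an unadjusted p under 0.05, 14 of the 35 were lower and 0 higher. The background at that p was 6.10% lower and 6.42% higher over all probe sets, and 10.7% and 12.6% among the 8879 with a mean of at least 7. Since the genes were proposed with this contrast known, these counts are a description only.

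The measured size of the Spcs3 difference was not approached by any of the other 35 genes. Their 95% intervals from limma, not adjusted for the number of genes, all ended above the Spcs3 value of -1.56. The lowest end was -0.34, for Magt1, and the highest was 0.30, for Srp14. For 30 of the 35 the whole interval lay within 0.25 of 0 on either side. The interval lay wholly below 0 for 14 genes, wholly above 0 for 0 genes, and held 0 for 21 genes. One of the 35, Sec11c, averaged under 7, where a change can be hidden.

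**Figure D2:**
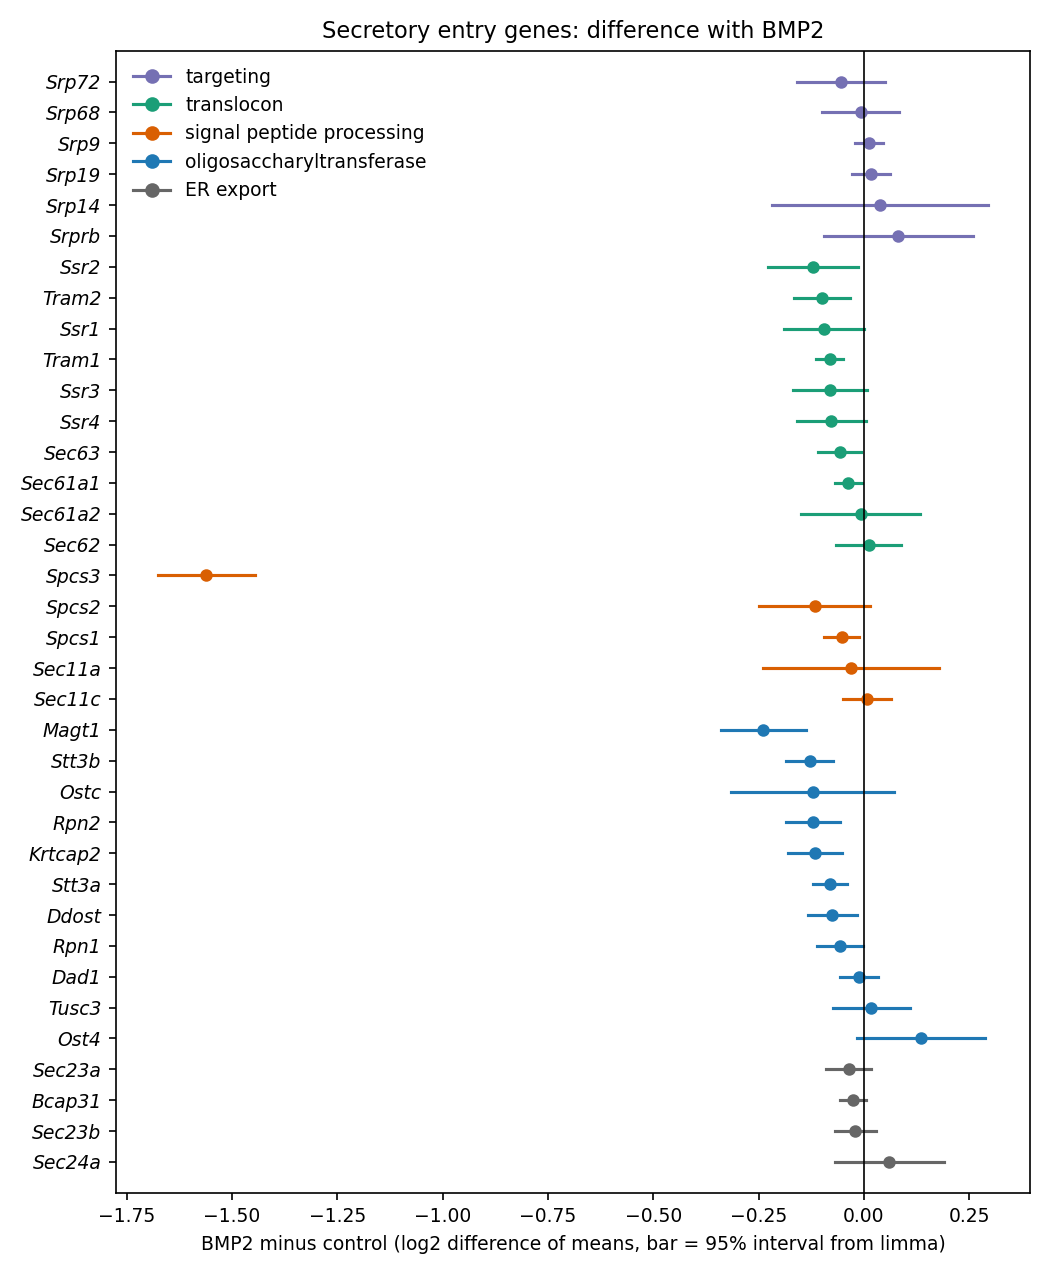
BMP2 minus control difference (log2, points) with its 95% interval from limma (bars) for the 36 measured genes, coloured and grouped by role. Spcs3 lies at -1.56 and the other 35 points lie between -0.24 and 0.14.

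Most of the other genes lay slightly below 0. The median over all 36 was -0.05 and 27 lay below 0 (75%), while the median over all probe sets was 0.0007 with 48.8% below 0. For the 8879 probe sets with a mean of at least 7 the median was 0.008 with 45.6% below 0. In 15 of the 35 other than Spcs3 all 3 BMP2 samples lay below all 3 control samples, and in 0 all lay above. The background was 8.25% of all probe sets for the first pattern and 8.42% for the second. Among probe sets with a mean of at least 7 it was 11.6% and 13.9%. The median was -0.04, -0.05 and -0.08 in the pairs of replicates 1, 2 and 3. These small values also belong to the contrast with which the list was proposed, and nothing is read from their count.

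The signal recognition genes showed no common direction. Of the 6 measured, 2 lay below 0 and 4 above, with a median of 0.01, and none had separate groups. Differences ran from -0.05 for Srp72, an SRP protein that binds the particle's RNA, to 0.08 for Srprb, the membrane anchor of the SRP receptor. Srprb stood at 8.52, 8.61 and 8.79 in BMP2 samples and 8.54, 8.57 and 8.55 in control samples, so that only BMP2 replicate 3 was clearly apart. Srp9 and Srp14, which together bind the Alu end of the SRP RNA, differed by 0.01 ± 0.01 and 0.04 ± 0.10. Srp19 and Srp68, 2 more proteins of the particle, differed by 0.02 ± 0.02 and -0.01 ± 0.04. Srp9 averaged 7.06 with BMP2 and 7.05 in control, and Srp19 averaged 7.27 and 7.25. Both lie just above the floor, so a change in them could be hidden. No gene of the 6 passed in limma, with adjusted p between 0.77 and 0.98, and 0 had an unadjusted p under 0.05.

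Translocon genes lay lower by small amounts, and none passed without the replicate block. Of the 10 measured, 9 lay below 0 with a median of -0.08, and 6 had all BMP2 samples below all control samples. The last pattern held for 8.25% of all probe sets and 11.6% of those with a mean of at least 7. Nothing is read from these counts, since the list was proposed with this contrast known. Tram1 encodes a membrane protein that contacts the incoming chain beside the channel. It stood at 12.21, 12.22 and 12.24 with BMP2 and 12.29, 12.30 and 12.32 in control, with no overlap. Its difference was -0.08 ± 0.01 with a limma adjusted p of 0.069, and it passed with the replicate number as a block (adjusted p = 0.044). Its relative Tram2 differed by -0.10 ± 0.03 (adjusted p = 0.21), also without overlap. Sec61a1, the channel subunit itself, stood at 12.16, 12.19 and 12.16 with BMP2 and 12.22, 12.21 and 12.19 in control. The groups of Sec61a1 were separate by a narrow margin, with a difference of -0.04 ± 0.01 (limma adjusted p = 0.35), and its second isoform gene Sec61a2 differed by -0.01 ± 0.06. Sec63, which works with the chaperone BiP at the channel, differed by -0.06 ± 0.02 (adjusted p = 0.33), and its partner Sec62 by 0.01 ± 0.03.

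The 4 subunits of the translocon-associated protein complex, which sits beside Sec61 and helps certain signal sequences to enter, all lay below 0. Ssr2 stood at 11.42, 11.43 and 11.49 with BMP2 and 11.52, 11.54 and 11.65 in control, a difference of -0.12 ± 0.04. Ssr1 differed by -0.10 ± 0.04, Ssr3 by -0.08 ± 0.03 and Ssr4 by -0.08 ± 0.03. The limma adjusted p of the 4 lay between 0.33 and 0.45, and between 0.070 and 0.10 with the replicate block. Groups were separate for Ssr1 and Ssr2 and overlapped for Ssr3 and Ssr4. Each of the 4 was lower with BMP2 within every replicate number.

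Oligosaccharyltransferase exists in 2 forms, built around the catalytic subunits Stt3a, which works beside the translocon, and Stt3b, which also reaches sites that were skipped. Differences of 9 of the 11 measured genes were below 0 (median -0.08), and 6 genes had all BMP2 samples below all control samples. That pattern held for 8.25% of all probe sets and 11.6% of those with a mean of at least 7, and nothing is read from the counts here either. The largest difference after that of Spcs3 was that of Magt1, an oxidoreductase subunit of the Stt3b form. It stood at 8.38, 8.32 and 8.27 in BMP2 samples and 8.51, 8.62 and 8.55 in control samples. The groups of Magt1 did not overlap, and the difference of -0.24 ± 0.04 had a limma adjusted p of 0.078. The difference of Spcs3 was 6.55 times as large on the log2 scale. Tusc3, the alternative to Magt1 in that form, differed by 0.02 ± 0.04 (adjusted p = 0.96). Stt3b stood at 11.27, 11.31 and 11.24 with BMP2 and 11.41, 11.38 and 11.42 in control, a difference of -0.13 ± 0.02 (adjusted p = 0.081). Magt1 passed when probe sets with a mean under 7 were left out (adjusted p = 0.034), and Stt3b after renewed quantile normalization (adjusted p = 0.039).

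Subunits of the Stt3a form gave similar sizes. Stt3a stood at 12.06, 12.11 and 12.10 with BMP2 and 12.15, 12.17 and 12.19 in control, without overlap (difference -0.08 ± 0.02, limma adjusted p = 0.11). Krtcap2 and Ostc, which join this form to the translocon, both differed by -0.12, with SE of 0.03 and 0.08 and limma adjusted p of 0.13 and 0.68. The wider error of Ostc came with a low value in BMP2 replicate 3 (10.85, against 11.07 and 11.10 in the other BMP2 samples). Of the subunits shared by both forms, Rpn2 differed by -0.12 ± 0.03 and Ddost by -0.07 ± 0.02, both without overlap. Rpn1 differed by -0.06 ± 0.02 and Dad1 by -0.01 ± 0.02. None of these 4 passed in limma (adjusted p 0.13 to 0.93).

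Ost4, a very small subunit of the enzyme, lay in the other direction. It stood at 12.02, 12.07 and 11.90 in BMP2 samples and 11.86, 11.93 and 11.78 in control samples. The groups overlapped, while within each replicate number the BMP2 sample was higher, by 0.16, 0.14 and 0.12. The difference of 0.14 ± 0.06 had a limma adjusted p of 0.47 without the block and 0.039 with it. With the block the 35 genes other than Spcs3 thus held 1 called lower, Tram1, and 1 called higher, Ost4. The background with the block was 1.64% of all probe sets lower and 1.68% higher.

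ER export genes were nearly level between the groups. Sec23a and Sec23b, which encode inner coat proteins of the vesicles that leave the ER, differed by -0.04 ± 0.02 and -0.02 ± 0.02. Sec24a, a cargo-binding coat protein, differed by 0.06 ± 0.05, and Bcap31, an ER membrane protein that handles membrane cargo, by -0.03 ± 0.01. The groups of Bcap31 were separate by a narrow margin, with BMP2 lower, and those of the other export genes overlapped. The limma adjusted p of these 4 genes lay between 0.48 and 0.84.

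**Figure D3:**
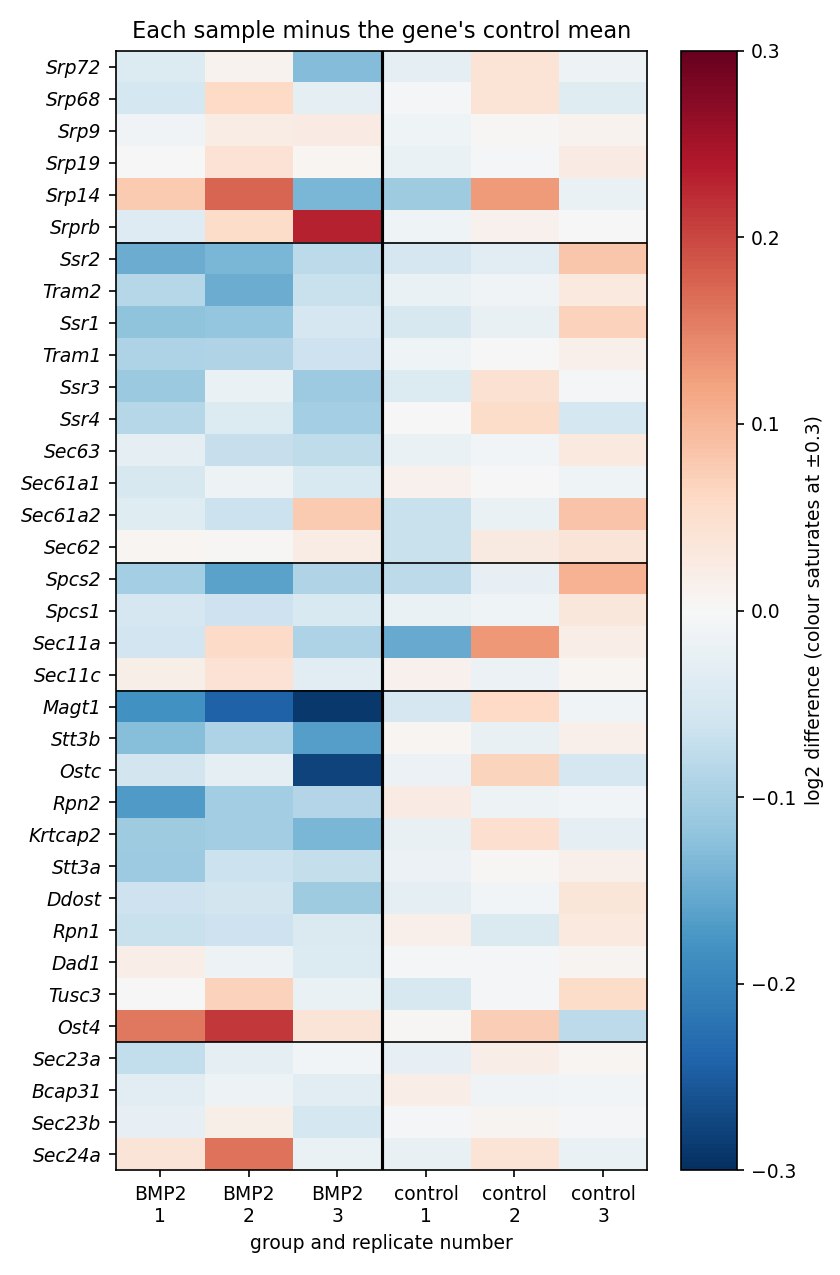
Each sample's log2 value minus the control mean of its gene, for the 35 genes other than Spcs3, with BMP2 samples left of control samples and rows grouped by role as targeting, translocon, signal peptidase, oligosaccharyltransferase and export. Blue is below and red above the control mean; the darkest cells are Magt1 and Ostc in BMP2 replicate 3, and Ost4 runs against its neighbours.

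Variation between the replicate numbers was tested apart from BMP2, with a limma F test on the model of group plus replicate number. Over all probe sets 6 (0.0284%) passed and 0 of the 36 genes did, while 7 of the 36 had an unadjusted p under 0.05. The background at that p was 14.8% of all probe sets and 29.2% of those with a mean of at least 7, so the 7 are no result about these genes. They were Ost4, Sec61a2, Srp68 and the 4 translocon-associated protein genes. The means of replicates 1, 2 and 3 were 11.47, 11.48 and 11.57 for Ssr2, which was highest in replicate 3, and 11.94, 12.00 and 11.84 for Ost4, which was lowest there. Mouse, culture and preparation cannot be told apart in this measure. Spcs3 averaged 10.19, 10.26 and 10.29 in the 3 numbers (unadjusted p = 0.22).

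Neighbouring steps of the secretory route were read from the same fit, in 6 lists of 113 genes of which 110 were measured. Of the 110, 1 was called higher and 1 lower in limma, against 0.616% higher and 0.573% lower over all probe sets. Counts this small are no result about the lists. The median difference was -0.004 with 53.6% below 0. Of all probe sets 48.8% lay below 0, and of those with a mean of at least 7 it was 45.6%. Both called genes belong to the list of ER folding and stress, where 25 genes were measured with a median of -0.02. Pdia4, an ER disulfide isomerase, stood at 10.12, 10.10 and 10.09 in BMP2 samples and 10.29, 10.27 and 10.27 in control samples. It fell by 0.17 on the log2 scale (SE 0.01, limma adjusted p = 0.0079, and 0.018 with the block), with no overlap. Pdia4 did not pass without control replicate 2 (adjusted p = 0.058) or with an intensity trend (adjusted p = 0.12). Ddit3, which encodes the stress factor CHOP, stood at 7.12 to 7.13 in BMP2 samples and 7.03 to 7.06 in control samples, just above the floor, and rose by 0.08 ± 0.01 (limma adjusted p = 0.048). It passed in none of the 6 fits that left out 1 sample, and not with the block (adjusted p = 0.070).

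Other stress and folding genes pointed in different directions. Herpud1, a target of the unfolded protein response that acts in ER-associated degradation, stood at 10.50, 10.66 and 10.34 with BMP2 and 9.86, 9.82 and 9.47 in control. Its groups were far apart (difference 0.78 ± 0.14), with a limma adjusted p of 0.086 without the block and 0.030 with it. Herpud1 also passed when probe sets with a mean under 7 were left out (adjusted p = 0.020) and with an intensity trend (adjusted p = 0.019), where Ddit3 did not (adjusted p 0.18 and 0.14). Hspa5, the gene of the main ER chaperone BiP, differed by 0.06 ± 0.03 (adjusted p = 0.49), and Xbp1, a transcription factor of the same response, by -0.09 ± 0.06 (adjusted p = 0.69). Hsp90b1, another ER chaperone, differed by -0.16 ± 0.03 (adjusted p = 0.093).

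In the other 5 lists none passed without the block. Among 16 genes of N-glycan trimming and the calnexin cycle the median was -0.04. Calr, the calreticulin gene, differed by -0.17 ± 0.05 (limma adjusted p = 0.23, and 0.038 with the block), and Canx, calnexin, by -0.11 ± 0.02 (adjusted p = 0.083). Among 22 genes of lipid-linked oligosaccharide synthesis the median was 0.01, with Alg2, a mannosyltransferase, at -0.11 ± 0.02 (adjusted p = 0.10). Alg12, another mannosyltransferase of this pathway, differed by 0.26 ± 0.07 (adjusted p = 0.24). Among 15 other genes of vesicle coats and export, Mia3, which helps to load large cargo such as collagen, differed by 0.45 ± 0.14 (adjusted p = 0.29, and 0.037 with the block). Sec31a, an outer coat gene, differed by -0.06 ± 0.02 (adjusted p = 0.24). The 23 genes of other membrane insertion routes had a median of 0.001 and ran from -0.10 to 0.10, with Emc6, of the ER membrane protein complex, at 0.09 ± 0.02 (adjusted p = 0.21) and Get3, the ATPase that delivers tail-anchored proteins, at 0.10 ± 0.04 (adjusted p = 0.39). The 9 intramembrane protease and GPI transamidase genes had a median of -0.02, with Sppl2a, an intramembrane protease gene, at 0.09 ± 0.02 (adjusted p = 0.11) and Pigt, a transamidase subunit, at -0.12 ± 0.03 (adjusted p = 0.17).

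**Figure D4:**
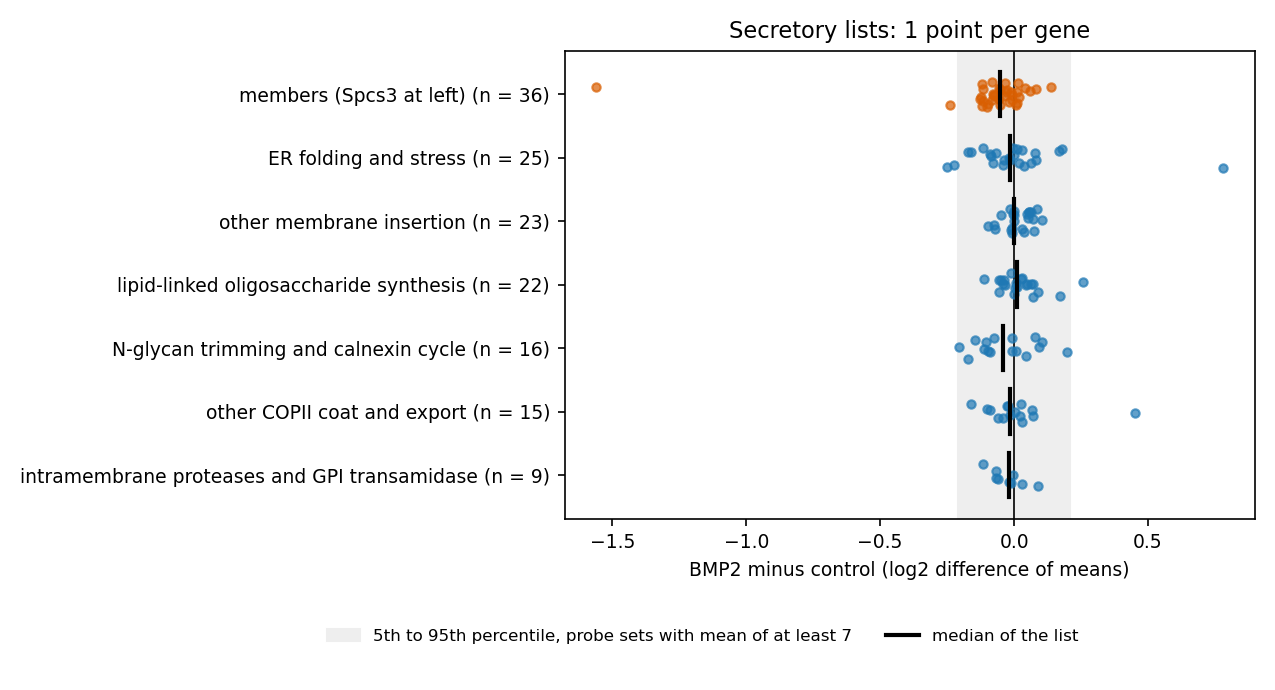
BMP2 minus control difference (log2, 1 point per gene) for the 36 secretory entry genes and for the 6 lists of neighbouring steps, with the median of each list as a black line. The grey band runs from -0.21 to 0.21, the 5th to 95th percentile of probe sets with a mean of at least 7; Spcs3 at -1.56 lies far outside it, as do Herpud1 at 0.78 and Mia3 at 0.45 on the other side.

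The genes beside Spcs3 on chromosome 8 were also read, chosen by position after the Spcs3 values were known. Vegfc, a lymphatic growth factor gene on one side, differed by -0.03 ± 0.02 (limma adjusted p = 0.80). Asb5 and Spata4 on the other side differed by -0.07 ± 0.02 (adjusted p = 0.26) and -0.004 ± 0.007 (adjusted p = 0.94). All 3 averaged between 6.41 and 6.72, near the floor, so a change could be hidden.

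Promoter windows from RefSeq (GRCm38.p6), each of 300 bases from 250 before to 50 after a gene start, were found for 27 of the 36 genes, in 30 windows. The genes not matched were Spcs3, Sec11c, Sec61a1, Ssr2, Srp19, Srp68, Tram1, Ostc and Tusc3. The 30 windows of matched genes had a median GC content of 60.2%, against 52.7% over all 32851 windows. The motif GGCGCC, a GC-rich element known from BMP-responsive genes, was in 30% of the member windows and in 11.9% of all windows, counting both strands. Of 3 BMP response genes whose windows were read, Hamp, the hepcidin gene, held it, and Id3 and Atoh8 did not. Windows of the BMP response genes Id1 and Smad7 were not read. GTCTAGAC, a SMAD-binding palindrome, was in 0 of 30 windows and in 0.213% of all. The ER stress response element, CCAAT and CCACG with any 9 bases between them, was in 0 of 30 and in 0.119% of all, and TGACGTGG, an element of the unfolded protein response, was in 1 window, that of Sec23a, and in 0.676% of all. CCAAT, which is also part of the longer element, was in 50% of member windows and 37.4% of all, and TATAAA was in 0 of 30 and 13.6% of all. A match describes letters in a window and not a bound site. Spcs1 is shown as a signal peptidase partner with a match and Magt1 as the gene with the largest difference after Spcs3, without one to the first 4 motifs. Capitals mark GGCGCC, both sequences run 5′ to 3′ on the minus strand, and they lie at chr14:31001617-31001916 and chrX:106011753-106012052.
Spcs1: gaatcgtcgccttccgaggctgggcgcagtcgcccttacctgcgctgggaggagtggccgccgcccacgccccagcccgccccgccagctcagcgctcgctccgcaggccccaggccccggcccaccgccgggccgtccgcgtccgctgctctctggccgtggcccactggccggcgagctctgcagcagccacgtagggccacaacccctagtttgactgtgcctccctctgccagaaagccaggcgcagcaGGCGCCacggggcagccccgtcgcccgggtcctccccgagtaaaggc
Magt1: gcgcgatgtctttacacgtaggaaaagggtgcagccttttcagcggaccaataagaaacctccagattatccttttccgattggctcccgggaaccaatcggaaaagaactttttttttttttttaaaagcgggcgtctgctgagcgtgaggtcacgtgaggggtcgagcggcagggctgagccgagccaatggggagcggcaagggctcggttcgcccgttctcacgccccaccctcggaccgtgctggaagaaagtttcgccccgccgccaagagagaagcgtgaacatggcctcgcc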

How the data were processed

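The deposited values are log2 expression levels made by the authors with RMA (robust multi-array averaging), per the submitters' processing notes. Its version and filters are not given in the sources used here. Gene symbols came from the platform annotation and covered 20405 of 21115 probe sets, and 710 had none. Each probe set is numbered after a gene, and where its probes lie on the transcript was not given. An array holds no counts, so the number of samples limits the precision.

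The members and lists were chosen with earlier results of these data known. The 2 groups were compared in R 4.3.3 by limma 3.58.1 (two-sided, lmFit and eBayes, Benjamini-Hochberg over all probe sets, threshold 0.05), without further normalization. All adjusted p, SE and 95% intervals come from these fits. After each group mean was subtracted, samples that share a replicate number correlated at 0.48, 0.58 and 0.61. The design text names 3 mice, so equal numbers were treated as pairs, and a fit with the number as a block stands beside the main one. Samples are described as biological replicates in the labels.

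The rule for named genes allowed every member to be named. It gave values per sample for signal peptidase genes, for members past the threshold in any fit and for the 4 largest differences, and in the other lists it named genes past the threshold or the 2 with the smallest p. Other values per sample, and Hspa5, Xbp1, Hsp90b1, Canx, Sec31a, the markers given and the neighbours of Spcs3, were picked after values were seen. Alternatives were the block, a filter at a mean of 7, an intensity trend, quantile normalization, median centring, a threshold of 0.10 and leaving out each sample. A fit without both samples of a number was chosen after seeing the data. All scripts were first tested on simulated data with known changes.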

Additional observations from a re-analysis of the deposited data

How the results depend on the processing

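The Spcs3 difference was -1.56 and lay between -1.59 and -1.51 with any 1 sample left out. It was between -1.60 and -1.52 without both samples of a replicate number. The median over the 36 secretory entry genes stayed between -0.06 and -0.04 with any 1 sample left out. Among the 35 other than Spcs3 the limma count called lower was 0, and it was 1 with the replicate block, 1 with the filter at a mean of 7, 1 after quantile normalization and 3 at a threshold of 0.10. The count called higher was 0, and 1 with the block. With any 1 sample left out both counts were 0. The counts over all 36 also hold Spcs3, on which the list was chosen. Spcs3 was already known to be lower in this contrast, so its part in these counts is no test of it. Nothing is read from the counts over all 36, or from how they differ from those over the 35. Called lower were 1, with 2 under the block, 2 with the filter, 2 after quantile normalization, 4 at 0.10 and 0 without both samples of replicate 2. Over all probe sets 251 were called, with 702 under the replicate block, 443 with the filter, 438 with the intensity trend and 567 at 0.10. Without 1 sample the count was 30 (without control replicate 2) to 223 (without BMP2 replicate 3), and without both samples of a number it was 2 to 114. Of the neighbouring genes 1 was called higher (Ddit3, but Herpud1 in its place with the filter or the trend), with 2 under the block, 0 after quantile normalization, 0 after median centring and 2 at 0.10, and 1 was called lower, with 2 under the block, 0 with the trend, 2 after quantile normalization and 3 at 0.10. Without 1 sample both counts were 0 or 1, and without both samples of a number both were 0. The 1 called higher without BMP2 replicate 3 was neither Ddit3 nor Herpud1 (limma adjusted p 0.10 for each in that fit). Between replicate numbers 6 probe sets were called, with 233 under the filter, 217 with the trend, 0 after quantile normalization and 70 at 0.10, and 0 whenever samples were left out. Among the named genes refitted, the sign turned for the 2 catalytic signal peptidase genes alone, whose differences were near 0. With any 1 sample left out Sec11a ran from -0.11 to 0.035 (lowest and highest of the 6 fits) and Sec11c from -0.008 to 0.03. With both samples of a number left out, Sec11a ran from -0.09 to 0.01 and Sec11c from -0.018 to 0.033. Among the secretory entry genes, the neighbouring genes and the markers, the block changed no call other than those given in the text. The cause of these shifts was not tested. With 3 samples per group, small differences such as those of the translocon genes lie at the limit of what was called.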
